A study of Mus musculus with 10 samples.

Results

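Immediate early genes are the first genes a cell transcribes after a stimulus, before any new protein is made, and their mRNAs are lost again soon after the stimulus ends. In hippocampal neurons, synaptic calcium entry acts through MAP kinases and calcium-dependent kinases on transcription factors already bound at these genes, among them CREB and SRF, which is why Fos, Arc and Egr1 are widely read as markers of recently active neurons. Here 10 of them, chosen by symbol, were followed among the 56884 genes of the count table: Fos, Fosb, Junb, Egr1, Egr2, Arc, Npas4, Nr4a1, Dusp1 and Ier2. All 10 were found by their Ensembl identifiers, and all 10 were among the 17622 genes with enough counts to be tested.

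Bulk RNA-seq was done on hippocampi of 10 ovary-intact female P301S mice, also known as PS19, in which the mouse Prnp promoter drives human mutant Tau. All mice carried this transgene, so no mouse without it enters the comparison. At 6 months of age, 5 females received SILASTIC tubing packed with 10 mm of dihydrotestosterone (DHT), an androgen that cannot be converted to estrogen, and the 5 others received an empty (void) implant. Hippocampi were taken after 12 weeks, at 9 to 9.5 months, in a fixed morning window and after ketamine/xylazine anaesthesia and perfusion. The mice keep their label numbers, which are 4, 5, 9, 10 and 11 with void and 1, 2, 3, 5 and 6 with DHT.

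Total counts ran from 27188854 to 47113661 in void-treated females and from 33523527 to 45947784 in DHT-treated females. Levels are given as CPM, counts scaled to a common library total after TMM normalisation in edgeR. The labels also carry an S number, whose meaning they do not state. It is lower in every void-treated mouse than in every DHT-treated mouse, so anything that follows this number and treatment cannot be told apart. The paper states that mice were housed together by treatment group, so cage and treatment are confounded too. In a bulk sample, fewer cells of a type and less RNA per cell cannot be told apart either. Neuron markers stood for the labelled tissue: all 7 were detected, with a summed level of 6953 to 7783 CPM with void and 6262 to 7145 CPM with DHT, and none of the 7 passed the test. Markers of 2 other cell types differed between the groups. The summed level of 12 choroid plexus markers was 117 to 1917 CPM with void and 2203 to 3155 CPM with DHT, and that of 8 microglia markers was 394 to 464 CPM with void and 559 to 795 CPM with DHT. In both lists every marker was detected, and the summed levels of the groups did not overlap. Of the single markers, 4 of 12 and 4 of 8 passed the test, against 5.48% of all tested genes.

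The promoters of these genes show what they have in common beyond their names. RefSeq promoter windows (GRCm38.p6) were matched for 7 of the 10 genes, all but Egr1, Arc and Ier2, and the 250 bases before the start site were searched on both strands. The CRE core, TGACG, to which CREB family proteins can bind, was present in 7 of the 7 genes, against 19.8% of the 27025 genes in the table. Nr4a1 had it at 4 places, Dusp1 at 3, Fos, Egr2 and Npas4 at 2 and Fosb and Junb at 1. The stretches below show at least 1 core in each gene (CGTCA where it lies on the other strand), and in Fos, Fosb, Egr2, Nr4a1 and Dusp1 they also hold another of the motifs searched. Capitals mark every motif found in the stretch. The Npas4 stretch overlaps an annotated Npas4 exon (GENCODE M21), and the other stretches overlap no annotated exon.
Fos (chr12:85473800-85473869, plus strand): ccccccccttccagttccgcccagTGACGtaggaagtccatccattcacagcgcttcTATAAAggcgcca
Fosb (chr7:19310061-19310130, minus strand): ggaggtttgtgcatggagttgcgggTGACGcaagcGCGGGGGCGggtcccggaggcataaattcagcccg
Junb (chr8:84978809-84978878, minus strand): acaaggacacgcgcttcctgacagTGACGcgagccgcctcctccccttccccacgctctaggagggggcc
Egr2 (chr10:67537793-67537822, plus strand): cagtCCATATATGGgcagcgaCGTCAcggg
Npas4 (chr19:4990129-4990158, minus strand): ccgttcgaCGTCAcgggaTGACGtcggaag
Nr4a1 (chr15:101266771-101266840, plus strand): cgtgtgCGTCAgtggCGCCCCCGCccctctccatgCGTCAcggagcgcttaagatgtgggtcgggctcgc
Dusp1 (chr17:26508603-26508672, minus strand): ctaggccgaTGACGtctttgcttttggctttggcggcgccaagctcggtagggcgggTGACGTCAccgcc
The full CRE, TGACGTCA, was found in Dusp1 alone among the 7 genes, as the last marked run of its stretch, and in 1.77% of all genes. It holds the core on both strands. The CArG box, the SRF site, was found in Egr2 alone and in 1.62% of all genes, and it is the A- and T-rich run in the Egr2 stretch. TATAAA was found in Fos alone and in 14.3% of all genes. The EGR site GCGGGGGCG was present in Fosb and Nr4a1 and in 2.93% of all genes, while the AP-1 site TGANTCA was present in none of the 7 and in 7.82% of all genes. A match describes the letters in the window and shows no binding, and a missing match says nothing about sites outside the 250 bases.

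The genes differed widely in level. Compared per length, as CPM divided by kilobases of annotated exon (RPKM), Arc and Egr1 were the most abundant. Arc, which encodes a protein that controls AMPA receptor uptake at synapses, was at 40.9 ± 17.1 RPKM with void and 30.9 ± 13.3 RPKM with DHT (SD, n = 5 each). Egr1, a zinc-finger transcription factor, was at 38.4 ± 12.6 RPKM with void and 35.3 ± 9.11 RPKM with DHT. Next in level were Junb at 18.7 ± 6.81 RPKM, Nr4a1 at 16.3 ± 6.67 RPKM, Fos at 9.85 ± 6.30 RPKM and Dusp1 at 6.88 ± 3.24 RPKM with void. The lowest were Ier2 at 3.75 ± 1.65 RPKM, Npas4 at 3.73 ± 2.04 RPKM, Fosb at 2.50 ± 0.763 RPKM and Egr2 at 1.93 ± 1.45 RPKM with void. In void-treated females the step from Egr1 to Junb was the only one between neighbours in this order that was larger than the SDs of both. The exon lengths come from GENCODE M21 and count every annotated isoform, which lowers the value of a gene with long rare isoforms.

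The comparison of DHT with void asked whether androgen supplementation altered these genes. None of the 10 passed edgeR's quasi-likelihood test at an adjusted p under 0.05, where 5.48% of all tested genes did. By direction, 0 of the 10 were higher and 0 lower, against 5.22% and 0.261% of all tested genes, and with a log2 fold change beyond 1 as well the shares were 0 of 10 and 2.19%. At an unadjusted p under 0.05 the count was again 0 of 10, against 17.4% of all tested genes, and DESeq2 and limma-voom also called 0 of 10. In none of the 10 did the groups fail to overlap, which happened for 6.27% of all tested genes. All 10 estimates lay below 0, with a median log2 fold change of -0.34, while the median over all tested genes was 0.01 and 52.4% of them were above 0. The 10 estimates are not independent, since the genes were low in the same mice, as described further on. The median was -0.10 without void replicate 5 and -0.55 without void replicate 11.

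**Figure D1:**
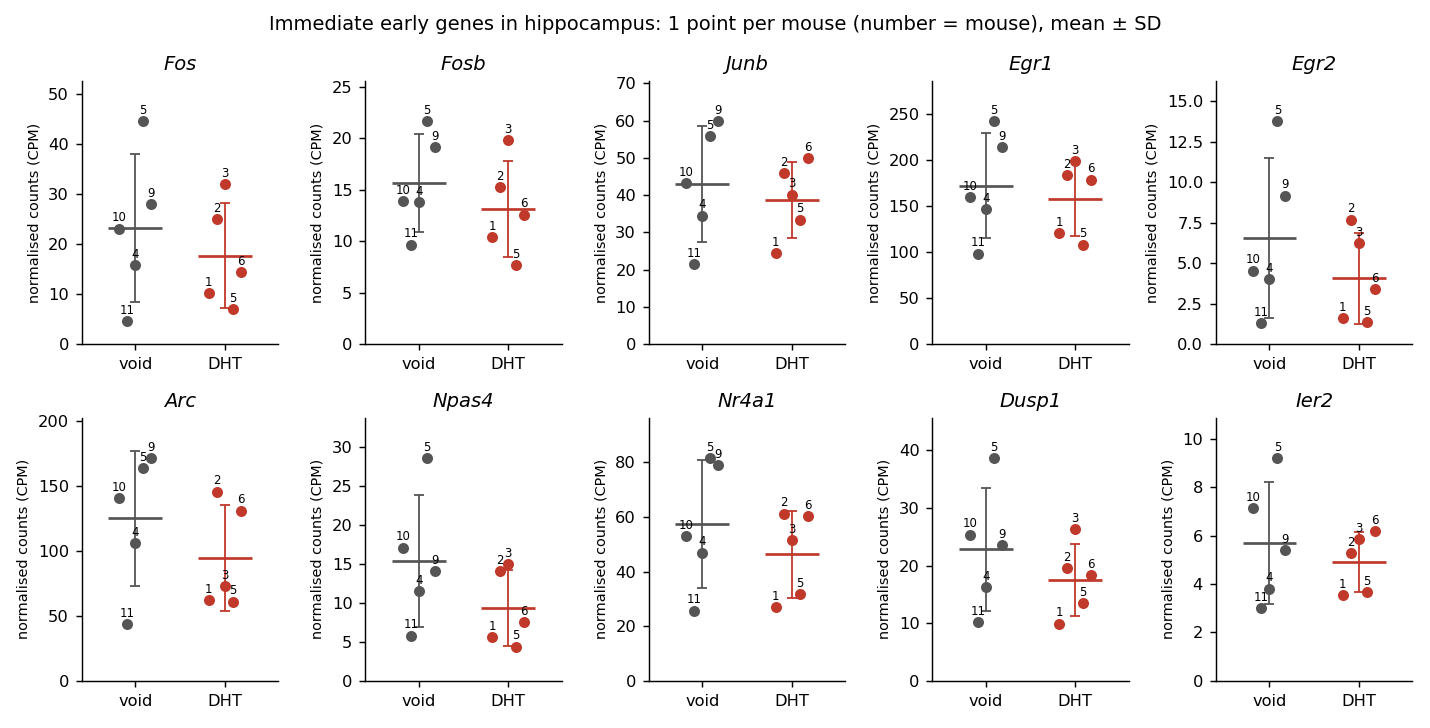
Normalised counts (CPM, linear axes from 0) of the 10 immediate early genes in each void-treated and DHT-treated female; points are mice with their label numbers, horizontal lines group means and error bars SDs. The groups overlap in all 10 panels, and void 11, DHT 1 and DHT 5 are the 3 lowest mice in each.

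Among the AP-1 subunits, which pair as FOS and JUN proteins to bind DNA, Fos varied most. With void it was at 15.7, 44.5, 28.0, 23.1 and 4.58 CPM in mice 4, 5, 9, 10 and 11, and with DHT at 10.2, 24.9, 31.9, 6.97 and 14.4 CPM in mice 1, 2, 3, 5 and 6. The highest and the lowest of the 10 mice were both void-treated, and they differed 9.71-fold. Its log2 fold change was -0.38 (standard error, SE, 0.51, 95% interval -1.49 to 0.73, edgeR adjusted p = 0.791). Fosb, which also gives rise to the long-lived variant known as delta FosB, ranged from 9.68 to 21.7 CPM with void and from 7.66 to 19.9 CPM with DHT. Its log2 fold change was -0.24 (95% interval -0.80 to 0.32, adjusted p = 0.715). Junb, a JUN partner, ranged from 21.5 to 59.9 CPM with void and from 24.4 to 50.0 CPM with DHT, with a log2 fold change of -0.15 (95% interval -0.71 to 0.41, adjusted p = 0.853). Exons of Prdx2 overlap Junb on the opposite strand, and since the handling of strand is not stated, reads of that overlap cannot be assigned.

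The EGR factors recognise GC-rich sites. Egr1 was at 147, 242, 214, 160 and 98.4 CPM in void mice 4, 5, 9, 10 and 11, and at 121, 184, 199, 108 and 179 CPM in DHT mice 1, 2, 3, 5 and 6. The spread within each group was wider than the gap between the means, 172 ± 56.7 and 158 ± 40.9 CPM (SD, n = 5 each). It had the narrowest 95% interval of the 10 genes, from -0.63 to 0.39 on the log2 scale around a log2 fold change of -0.12 (adjusted p = 0.869). Egr2 was at 4.02, 13.8, 9.18, 4.54 and 1.32 CPM in void mice 4, 5, 9, 10 and 11, and at 1.61, 7.70, 6.26, 1.35 and 3.39 CPM in DHT mice 1, 2, 3, 5 and 6. It had the widest range of the 10 genes, 10.4-fold from the highest mouse to the lowest, again within the void group. Its log2 fold change was -0.68 (SE 0.59, 95% interval -1.95 to 0.60, adjusted p = 0.639).

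Npas4 is a neuron-specific factor that responds to calcium entry and acts on inhibitory synapses, and it had the lowest p of the 10 genes. It was at 11.5, 28.6, 14.1, 17.1 and 5.81 CPM in void mice 4, 5, 9, 10 and 11, and at 5.63, 14.1, 14.9, 4.40 and 7.50 CPM in DHT mice 1, 2, 3, 5 and 6. The top DHT-treated mouse lay above 3 of the void-treated mice. The log2 fold change was -0.72 (SE 0.41, 95% interval -1.62 to 0.18, unadjusted p = 0.108, adjusted p = 0.430), and a two-sided exact permutation test over the 10 mice gave p = 0.214. Nr4a1, an orphan nuclear receptor, was at 47.0, 81.7, 79.1, 53.1 and 25.8 CPM in void mice 4, 5, 9, 10 and 11, and at 27.0, 61.3, 51.5, 31.8 and 60.2 CPM in DHT mice 1, 2, 3, 5 and 6. All 5 DHT-treated mice lay inside the void range. Its log2 fold change was -0.30 (95% interval -0.97 to 0.36, adjusted p = 0.700).

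Among the effector genes, Arc was at 106, 164, 172, 141 and 43.8 CPM in void mice 4, 5, 9, 10 and 11, and at 62.0, 146, 72.7, 61.1 and 131 CPM in DHT mice 1, 2, 3, 5 and 6. DHT mouse 3, which was second of all mice for Fos, was seventh for Arc. The log2 fold change of Arc was -0.40 (SE 0.35, 95% interval -1.17 to 0.36, adjusted p = 0.639). Dusp1, a phosphatase that switches off MAP kinases, ranged from 10.2 to 38.7 CPM with void and from 9.92 to 26.3 CPM with DHT, with a log2 fold change of -0.37 (95% interval -1.08 to 0.34, adjusted p = 0.642). Its exons overlap those of Ergic1 on the opposite strand. Ier2, a small nuclear protein, ranged from 3.0 to 9.20 CPM with void and from 3.52 to 6.19 CPM with DHT, with a log2 fold change of -0.21 (95% interval -0.83 to 0.41, adjusted p = 0.793).

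**Figure D2:**
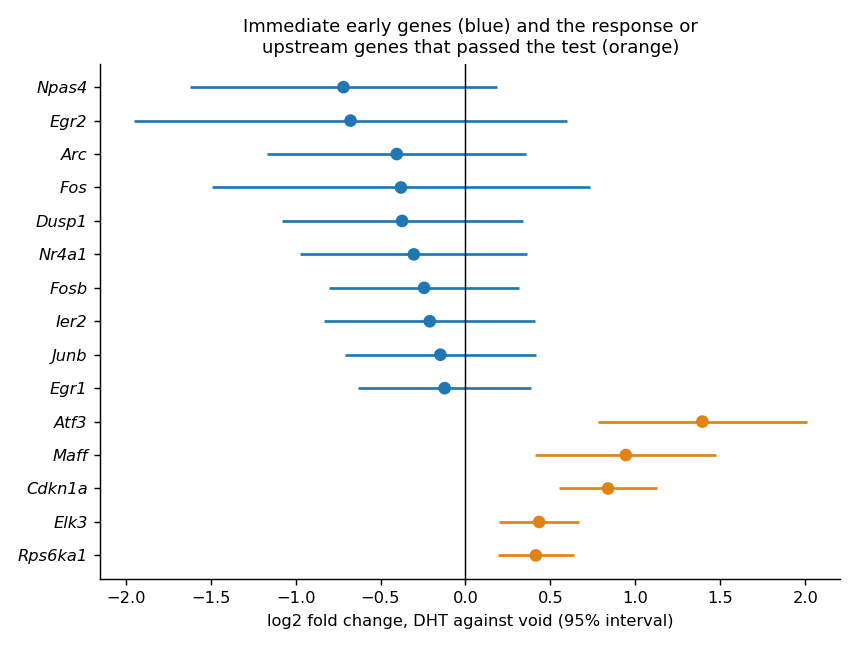
Log2 fold change (DHT against void, points) with its 95% interval (lines) for the 10 immediate early genes in blue and for the 5 response or upstream genes that passed the test in orange. All 10 blue intervals include 0, and the 5 orange ones lie above it.

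The spread between mice was the main feature of these genes. The coefficient of variation lay between 30.5% and 75.0% with void and between 25.4% and 69.5% with DHT, and it was larger with void in 8 of the 10 genes. The ratio of the highest to the lowest of the 10 mice ran from 2.46 for Egr1 to 10.4 for Egr2. edgeR's estimate of the variation between mice of a group, beyond counting error, had a median of 0.346 over the 10 genes against 0.132 over all tested genes. Ranked among tested genes of a like mean level, 8 of the 10 genes lay above the 98th percentile, and the lowest was Ier2 at the 94.5th. Egr1, with 3286 to 9511 counts per mouse, was at the 99.8th percentile.

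**Figure D3:**
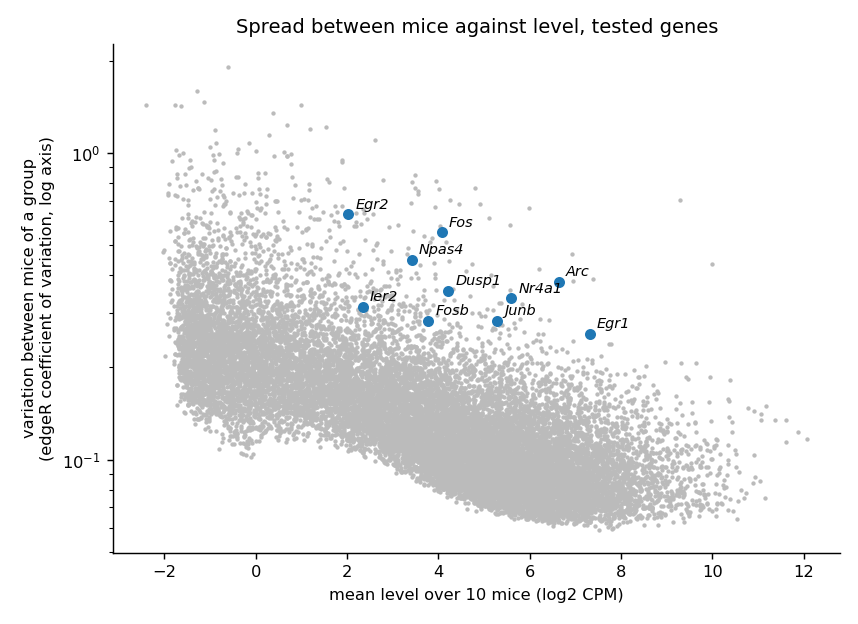
Variation between mice of a group (edgeR coefficient of variation, log axis) against mean level (log2 CPM) for the 17622 tested genes in grey and the 10 immediate early genes in blue. The blue points lie in the upper part of the cloud at their levels, from 0.258 for Egr1 to 0.631 for Egr2.

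All 10 genes had the same 3 low mice. Void 11, DHT 1 and DHT 5 held the 3 lowest places for 10 of the 10 genes. The same 3 mice were lowest for 0.528% of all tested genes, 93 in number, a comparison chosen after the values were seen. Void 5 was highest for 8 genes and void 9 for Arc and Junb, and void 5 was first or second for all 10. On the mean log2 CPM of the 10 genes, void 11 was at 3.47, DHT 5 at 3.68 and DHT 1 at 3.74, followed after a gap by void 4 at 4.39, and void 5 was highest at 5.45. The low mice thus came from both groups, while no DHT-treated mouse was highest for any of the 10 genes. The void-treated mice averaged 4.63 ± 0.754 and the DHT-treated mice 4.31 ± 0.563 on this value (SD, n = 5 each).

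**Figure D4:**
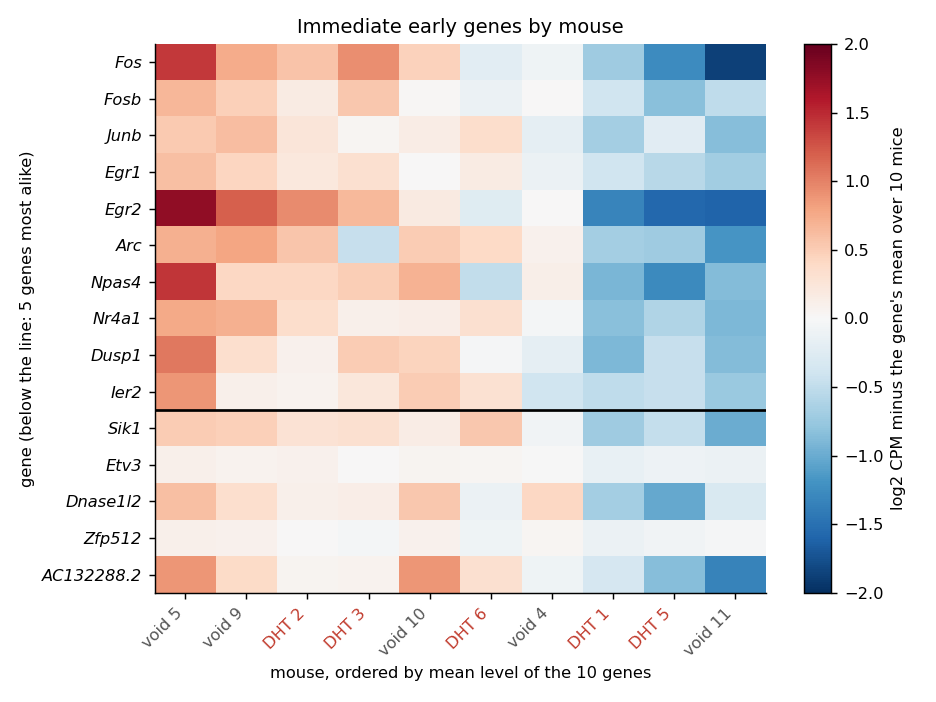
Log2 CPM minus each gene's mean over the 10 mice (colour) for the 10 immediate early genes and, below the line, the 5 genes most like them; mice are ordered by the mean level of the 10 genes, with void labels in grey and DHT labels in red. The 3 columns at the right, DHT 1, DHT 5 and void 11, are blue for every immediate early gene.

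Likeness was measured by Pearson's r over the 10 mice, on log2 CPM after subtracting each group's mean. Over the 45 pairs of the 10 genes, r ran from 0.666 for Fosb with Arc to 0.976 for Junb with Nr4a1, with a median of 0.886, and Spearman's rho from 0.552 to 0.988 with a median of 0.842. Under exact permutation of the mice within groups, with Benjamini-Hochberg adjustment over the 45 pairs, r passed 0.05 in 45 pairs and rho in 34. Fos and Npas4 had r = 0.967 (exact permutation p = 0.000208) and rho = 0.988 (exact permutation p = 0.000347), and r = 0.952 without the 2 mice farthest from the median of Fos. Over all pairs, leaving out the 2 mice farthest from the median of the first gene gave r from 0.397, for Arc with Npas4, to 0.986. Since 3 mice stood apart, r was also computed over the 7 others, where its median was 0.654 and its range -0.069 to 0.958. Part of the pooled likeness, that of Arc above all, thus rested on the 3 low mice. Arc had r = 0.872 with the mean of the 10 genes over all mice and 0.410 over the 7 others, while Egr1 had 0.983 and 0.938. Both genes are part of that mean, which raises their r.

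The 5 other genes most like the mean of the 10 were Sik1, Etv3, Dnase1l2, Zfp512 and AC132288.2, with r from 0.946 to 0.888 over the 10 mice. They were picked as the highest r among all tested genes outside the 10. Without the 3 low mice, their r was 0.727, 0.828, 0.532, 0.765 and 0.577 in the same order. Sik1, a kinase induced by cAMP and CREB, was at 20.8 CPM in void 5 and 7.37 CPM in void 11. Etv3, an ETS family repressor, moved far less, from 39.1 CPM in void 5 to 32.7 CPM in DHT 1. AC132288.2 stayed under 1 CPM in every mouse.

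In none of the cell type lists did the summed level have these 3 mice as its lowest. Void 5 and void 11, with the highest and the lowest mean of the 10 genes, had the 2 highest summed levels of neuron markers, 7783 and 7596 CPM, and both had low choroid plexus sums, 117 and 125 CPM. Over these lists, no neuron, microglia, choroid plexus, astrocyte, oligodendrocyte or endothelial marker had its 3 lowest values in the same 3 mice. Since 0.528% of all tested genes did, that count is near the share and says nothing particular about these markers. The 6 dentate granule cell markers ran partly the other way: their sum was highest in void 11 at 795 CPM and in DHT 1 at 744 CPM, but DHT 5, at 634 CPM, was near the middle, and the median r of these markers with the 10 genes was -0.624. Their part in the spread was not tested. With the granule cell markers as a covariate, an alternative added after the data were seen, 0 of the 10 genes passed the test, and the lowest adjusted p was 0.0706, for Npas4.

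Other genes of the response were taken from fixed lists. Of 45 other rapid response genes, 44 were tested, of which 2 rose and 0 fell, near the 5.22% and 0.261% of all tested genes, and the median log2 fold change was 0.03. The genes that rose were Atf3 and Maff, both bZIP factors induced by stress. Atf3 was at 1.10 ± 0.428 CPM with void and 2.85 ± 0.777 CPM with DHT (SD, n = 5 each), for a log2 fold change of 1.39 (SE 0.28; edgeR adjusted p 0.0156). Maff was at 0.704 ± 0.270 CPM with void and 1.35 ± 0.196 CPM with DHT, a log2 fold change of 0.94 (SE 0.24; edgeR adjusted p 0.0443). In both, the lowest DHT value exceeded the highest void value. Atf3 passed with each mouse left out in turn, whereas Maff passed when void replicate 9 was left out and in none of the 9 other such fits, where its adjusted p reached 0.136. The low mice of the 10 genes recurred in part of this list. Sik1, Btg2, Arl4d, Dusp5, Apold1 and Dusp6, 6 of the 44, had the same 3 lowest mice, against 0.528% of all tested genes. Over the 44, r with the mean of the 10 genes ran from -0.23 to 0.946, with a median of 0.473. Of the other EGR and NR4A genes, Egr4 had r = 0.803, Nr4a2 0.354, Egr3 0.260 and Nr4a3 0.232. Btg2, an antiproliferative gene, went from 43.0 CPM in void 5 to 14.7 CPM in void 11.

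Delayed genes, which neurons induce over hours and which include the growth factor gene Bdnf, showed no such swings. Of 14 tested, 0 passed the test by edgeR's quasi-likelihood method, 3 had an unadjusted p under 0.05, and none had the same 3 lowest mice. Over all tested genes the shares were 5.48%, 17.4% and 0.528%, so these 3 counts say nothing particular about the list. Their summed level ran from 1398 to 1465 CPM with void and from 1236 to 1479 CPM with DHT. Bdnf was at 53.7 ± 3.69 CPM with void and 54.5 ± 4.23 CPM with DHT (SD, n = 5 each). The lowest p values were those of Mapk4, with a log2 fold change of 0.24 and an adjusted p of 0.107, and of Syt4, with -0.26 and 0.174.

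Upstream, 1 of 16 kinase and phosphatase genes and 1 of 17 transcription factor and coactivator genes rose, and none fell. These counts are near the 5.22% of all tested genes that were higher, so they say nothing particular about either list. Rps6ka1, which encodes the ribosomal S6 kinase RSK1, was at 14.7 ± 1.63 CPM with void and 19.6 ± 2.45 CPM with DHT (SD, n = 5 each), for a log2 fold change of 0.41 (SE 0.10; edgeR adjusted p 0.0384). Elk3, an ETS factor that binds with SRF, was at 10.2 ± 1.02 CPM with void and 13.8 ± 1.91 CPM with DHT, a log2 fold change of 0.43 (SE 0.11; edgeR adjusted p 0.0392). Both calls are sensitive to single mice: with each mouse left out in turn, Rps6ka1 passed without void 9, void 10 or DHT 2 and Elk3 without DHT 2 or DHT 6, with adjusted p up to 0.143 and 0.145 in the other fits. The genes for CREB (Creb1) and SRF (Srf) had log2 fold changes of -0.14 and 0.11 and did not pass the test. With choroid plexus content as a covariate, no tested gene passed, and adjusted p was 0.563, 0.938, 0.816 and 0.527 for Atf3, Maff, Rps6ka1 and Elk3. The log2 fold changes in that fit were 1.44 for Atf3 and 0.62 for Elk3, at least as large as without the covariate, and 0.27 for both Maff and Rps6ka1, which was smaller. Summed microglia and choroid plexus markers were higher in the DHT-treated mice too, with 4 of 8 and 4 of 12 markers passing the test. Their part in these 4 differences was not tested. The choroid plexus sums of the groups did not overlap, so a fit with that covariate cannot separate choroid plexus content from treatment.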

How the data were processed

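Hippocampal mRNA libraries of 5 void-treated and 5 DHT-treated female P301S mice, 1 library per mouse, were sequenced as paired ends. The authors trimmed and filtered reads with HTStream, aligned them with STAR 2.7.10b and deposited raw counts per gene. The study's methods name mm10, and the submitters' processing notes name mm39 and GRCm39. The annotation release and the handling of strand and of reads matching several genes are not given in the sources used here. GENCODE M21 (GRCm38) served for names (51948 of 56884 identifiers matched), exon lengths and overlaps, and RefSeq (GRCm38.p6) for promoters. No coordinates of counted genes are given.

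The analysis used edgeR 4.0.16 in R 4.3.3 (expression filter by group, TMM, quasi-likelihood test, Benjamini-Hochberg adjustment over 17622 genes). Genes passed at an adjusted p under 0.05. Each SE is |log2 fold change| over the root of F, and 95% intervals use the fit's degrees of freedom. Log2 CPM used a prior count of 2. DESeq2 1.42.0 and limma-voom (limma 3.58.1), other normalisations and filters, a choroid plexus covariate and leaving out each mouse were the alternatives. The edgeR, DESeq2 and limma-voom steps were tested on counts simulated with the spread typical of each gene's level. The correlation and promoter steps were not. Exact permutation tests were two-sided, with a smallest p of 0.00794 for 5 mice against 5. The genes, lists and tests were chosen with earlier results of these data known. Named from each other list are genes that passed, at most 4 by fold change, or else the 2 of lowest p. Genes named for sharing the 3 low mice were chosen after their values were seen. So were Bdnf, Fkbp5, Creb1, Srf, Tsc22d3, Egr3, Egr4, Nr4a2 and Nr4a3. Replicate spread covers mice of these cohorts alone.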

Additional observations from a re-analysis of the deposited data

How the results depend on the processing

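No paired analysis was possible. The paper states that littermates were randomised to treatment, but the labels give no litter, and their mouse numbers do not mark pairs. The count of immediate early genes passing the test stayed at 0 in each direction under all the alternatives, and of 180 values for single members, 176 kept their sign and 4 changed it: Ier2 with the choroid plexus covariate (0.049) and without void replicate 5 (0.031), Egr1 without void replicate 5 (0.032) and Junb without void replicate 9 (0.0019). The median log2 fold change of the 10 genes lay between -0.55 and -0.10 when single mice were dropped and between -0.40 and -0.24 otherwise; for Junb and Egr1 the values with single mice dropped began at -0.34 and -0.30. Of the 107 tested genes of the other response and upstream lists, 5 were higher and 0 lower, near the 5.22% and 0.261% of all tested genes. The higher count became 3 with no filter beyond 1 count, 0 with the choroid plexus covariate, 3 with the dentate granule cell covariate, 1 with a log2 fold limit of 1 and 10 at an unadjusted p, and lay between 2 and 5 when single mice were dropped. Over all tested genes the higher count moved too. It went from 920 to 950, 0 and 804 in the first 3 of these fits, and lay between 351 and 1072 when single mice were dropped. With the log2 fold limit it was 382 of 17622, so 1 of the 107 says nothing particular about these lists. The lower count of the 107 genes became 1 with the dentate granule cell covariate and 6 at an unadjusted p, and lay between 0 and 1 when single mice were dropped, the 1 being Syt4 without DHT replicate 2. The cause was not tested. At an unadjusted p, 17.4% of all tested genes passed in either direction. The 10 higher and 6 lower of the 107 genes are near that share and say nothing particular about these lists. With 5 mice a group and this spread, the 95% intervals of 5 of the 10 genes reach a log2 fold change of -1.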

Other observations

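Genes that respond to handling and to circulating steroids were looked at as well. None of 7 heat shock genes passed edgeR's quasi-likelihood test or had an unadjusted p under 0.05, against 5.48% and 17.4% of all tested genes. With 7 genes, these counts say nothing particular about the list. Their summed level ran from 2214 to 2408 CPM with void and from 1979 to 2383 CPM with DHT. The lowest p values were those of Hsph1 and Hspa8, chaperone genes with log2 fold changes of -0.16 and -0.07 and adjusted p of 0.415 and 0.601. No heat shock gene had its 3 lowest values in void 11, DHT 1 and DHT 5, near the 0.528% of all tested genes that did.

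Of 9 genes induced by glucocorticoids, 1 rose and none fell, where 5.22% of all tested genes were higher, so the count says nothing particular about the list. Cdkn1a, which encodes the cell cycle inhibitor p21, was at 7.14 ± 0.796 CPM with void and 12.8 ± 2.38 CPM with DHT (SD, n = 5 each), for a log2 fold change of 0.84 (SE 0.13; edgeR adjusted p 0.00761). It passed with each mouse left out in turn. With the choroid plexus covariate, where no tested gene passed, its log2 fold change was 0.71 and its adjusted p 0.533. Fkbp5, a widely used glucocorticoid target, was at 61.7 ± 10.4 CPM with void and 65.4 ± 3.94 CPM with DHT. Tsc22d3 was the 1 gene of this list that shared the 3 lowest mice with the immediate early genes. The median log2 fold change of the list was 0.01, the same as that of all tested genes to 2 decimals.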
